A study of Mus musculus with 12 samples.

Results

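GDC0941, an inhibitor of class I phosphatidylinositol 3-kinases (PI3K), was compared with its DMSO vehicle in mouse acute myeloid leukaemia cells. The comparison used the 3 GDC0941 and 3 DMSO samples, 6 of the 12 in the series, chosen by their labels, and every gene with a mean of at least 1 FPKM (fragments mapped to a transcript, scaled by its length and by the size of the library) over those 6. Of the 23234 genes in the deposited table, 10289 met that limit. Msi2 and Cml1, with means of 1.00 FPKM, lay just inside it, and Mcm8 and Kif18a, with means of 0.997 and 0.998 FPKM, just outside.

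All samples were primary leukaemia cells of genotype NRASG12V/Mll-AF9 on an (FVB/n X C57/BL/6J) F1 background. Both the activated NRAS oncogene and the fusion oncogene were thus present in treated and control cells alike. The cells were held for 24 h in RPMI with 10% serum and 1 ng/ml of the growth factor GM-CSF, and received DMSO or 20 µM GDC0941. The remaining samples received 20 µM PD325901, an inhibitor of the kinase MEK, or 26 µM RAD001, an inhibitor of the kinase mTOR. The labels give neither the age of the animals, nor the promoter that drives the oncogenes, nor the number of leukaemias. They number 3 libraries per group without giving the meaning of a number, so the p-values measure only the spread between these samples, which may be technical.

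PI3K makes a lipid second messenger at the inner face of the plasma membrane, and RAS proteins can activate it directly. The messenger recruits the kinase AKT, which holds FOXO transcription factors outside the nucleus and, through mTOR complex 1, promotes translation, glycolysis, amino acid supply and sterol synthesis. In myeloid cells the same route carries signals from growth factor receptors such as that for GM-CSF. The genes are described below by these roles, from the largest changes to the pathway's own components.

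**Figure D1:**
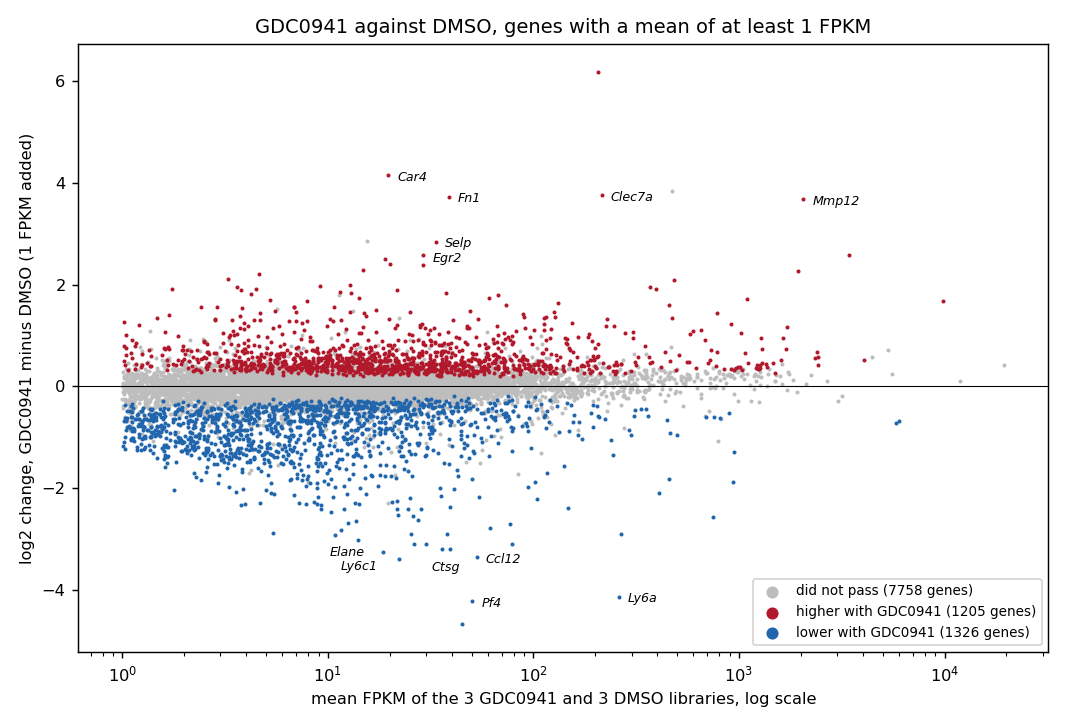
Each point is 1 of the 10289 genes: the x axis gives the mean FPKM over the 6 libraries on a log scale, and the y axis the log2 change between GDC0941 and DMSO after 1 FPKM was added. The 1205 genes that rose are red, the 1326 that fell are blue, and the 6 largest named changes each way carry their symbols; the unlabelled extreme points at the top and bottom are small nucleolar RNA genes listed at 0 in some libraries.

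Changes were measured as differences of log2(FPKM + 1), which understate the change of genes near 1 FPKM, and were tested with limma across all 10289 genes at an adjusted p under 0.05. With GDC0941, 2531 genes (24.6%) differed from DMSO. Of these, 1205 (11.7%) rose and 1326 (12.9%) fell. In each comparison, the shares over all genes are the background for the list counts below. Falls were larger: 454 genes fell and 142 rose by at least 1 on the log2 scale, and 66 fell and 16 rose by at least 2. Without regard to the test, 2100 genes (20.4%) had every GDC0941 value higher than every DMSO value, and 1880 (18.3%) had every GDC0941 value lower. The median log2 change of all tested genes was 0.02, so the changes below are relative to a centre near 0.

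The sequencing depth behind the FPKM values is unknown. The ratios among low values put the depth of the GDC0941 libraries at 0.984 to 0.997 of that of the first DMSO library, and the other DMSO libraries at 1.10 and 1.18. Spearman's rho across genes was 0.932 to 0.954 between the groups, 0.979 to 0.996 within DMSO and 0.966 to 0.986 within GDC0941. In every group, replicate 1 stood apart from replicates 2 and 3. Counts were therefore also taken without replicate 1 of every group, an alternative added after seeing the data. It left 1948 genes higher and 2361 lower of 10220 tested. Those larger numbers are the background for list counts against DMSO without replicate 1. Of the cell's own markers, Itgam, Csf2ra, Csf1r, Fcgr3 and Ptprc were present in every library at 91.3 FPKM or more, as markers of myeloid leukocytes, and Spi1 was not found under that symbol. Mpo, Elane and Ly6c1 were lower with the inhibitor and are described below. Markers of T and NK cells summed to 2.11 to 6.71 FPKM in the DMSO libraries and 0.156 to 1.94 FPKM in the GDC0941 libraries, with only Nkg7 reaching the limit. Markers of B cells summed to 4.59 to 5.96 FPKM in the DMSO libraries and 0.643 to 2.23 FPKM in the GDC0941 libraries, almost all of it Cd79b, with Pax5 and Ms4a1 at or near 0. In bulk RNA, fewer cells of a type and less RNA per cell cannot be told apart.

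The 12 largest rises included Car4, Clec7a, Fn1 and Mmp12. Car4, a membrane-anchored carbonic anhydrase, measured 0.521, 0.807 and 2.53 FPKM with DMSO and 25.98, 40.4 and 47.2 FPKM with GDC0941. The values did not overlap, and the log2 change was 4.15 ± 0.29 (SE, adjusted p = 1.46e-05). Clec7a, which encodes the beta-glucan receptor Dectin-1, measured 19.0, 28.1 and 35.6 FPKM with DMSO and 209, 519 and 479 FPKM with GDC0941, a log2 change of 3.76 ± 0.36 (SE, adjusted p = 7.04e-05). GDC0941 replicate 1 was the lowest of the treated libraries for both genes, yet lay above every DMSO library. The matrix protein gene Fn1 measured 4.44, 2.48 and 6.86 FPKM with DMSO and 104, 69.0 and 45.9 FPKM with GDC0941, a log2 change of 3.72 ± 0.39 (SE, adjusted p = 1.12e-04). The macrophage elastase gene Mmp12 measured 331, 198 and 395 FPKM with DMSO and 4348, 3535 and 3541 FPKM with GDC0941, a log2 change of 3.67 ± 0.21 (SE, adjusted p = 8.89e-06). Mmp12 lay at 3535 FPKM or more in every treated library and at 395 FPKM or less in every control.

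The other members of the 12 largest rises were of several kinds. Selp, the adhesion receptor P-selectin, rose by 2.84 on the log2 scale, from 6.31, 6.84 and 9.15 FPKM to 47.8, 69.6 and 61.1 FPKM. Egr2, an immediate early transcription factor, rose by 2.59, and the chemokine gene Ccl6 by 2.57, from 725, 1029.8 and 1250.3 FPKM to 4990.0, 6087 and 6474 FPKM. Tm7sf4, now named Dcstamp, encodes a protein needed for fusion of macrophages and osteoclasts, and it rose by 2.51. Cd209a, a C-type lectin receptor gene, rose by 2.40, A430084P05Rik (now Scimp, an adaptor of immune receptors) by 2.38, the cell cycle inhibitor gene Cdkn2b by 2.28 and Gm11428 (now Wfdc17) by 2.27. In each of these genes all 3 treated libraries lay above all 3 controls. The snoRNA gene Snora65 passed the test with a larger value but was listed at 0 in all DMSO libraries and in 1 GDC0941 library, so no size is given for it.

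**Figure D2:**
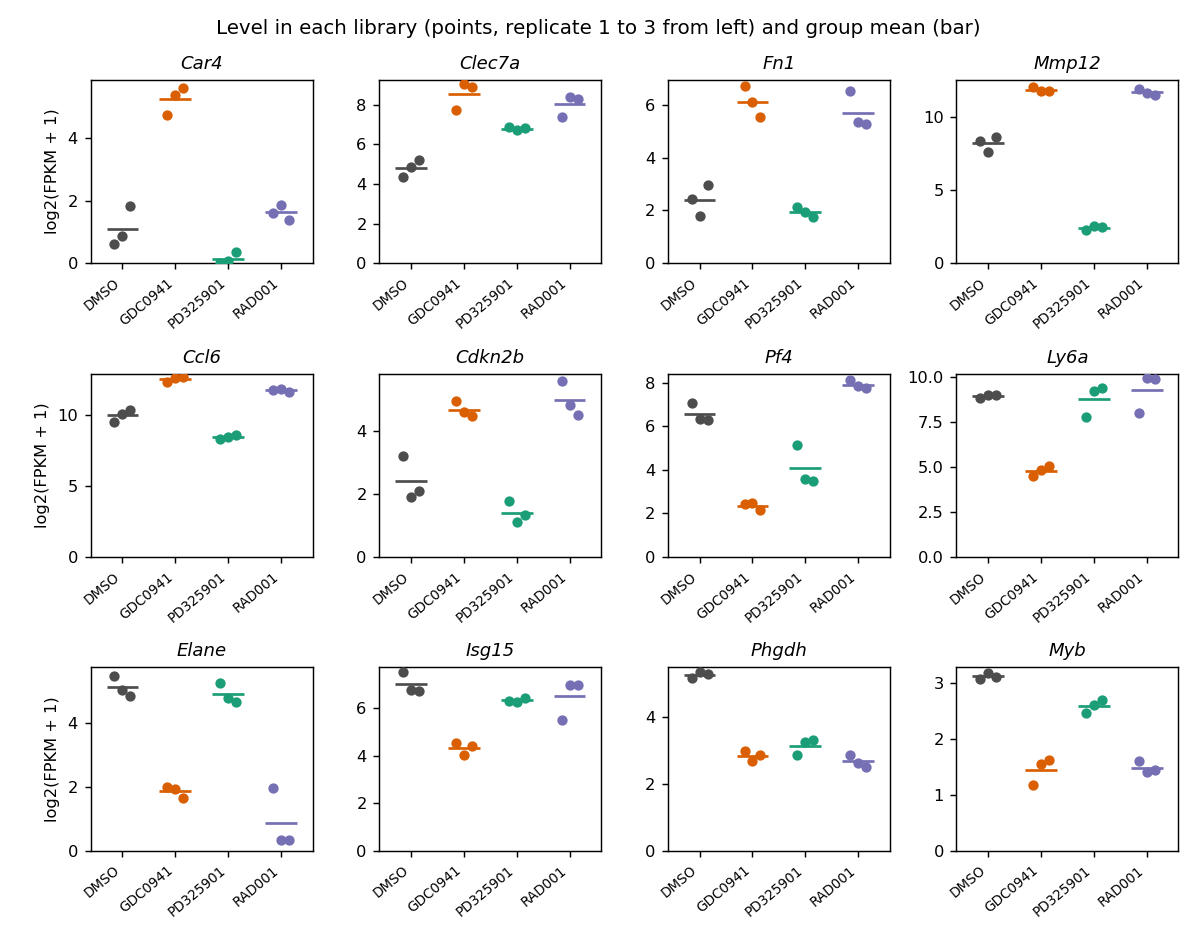
log2(FPKM + 1) in each of the 12 libraries for 12 genes, with points for replicates 1 to 3 from left to right and bars for the group means. For Car4, Clec7a, Fn1, Mmp12, Ccl6 and Cdkn2b the 3 GDC0941 points lie above the 3 DMSO points, and for Pf4, Ly6a, Elane, Isg15, Phgdh and Myb they lie below.

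The 12 largest falls included Pf4, Ly6a and Ly6c1. Pf4, the chemokine platelet factor 4, measured 132, 81.0 and 76.6 FPKM with DMSO and 4.35, 4.49 and 3.40 FPKM with GDC0941, a log2 change of -4.23 ± 0.37 (SE, adjusted p = 5.00e-05). Ly6a, the surface antigen Sca-1 of stem and progenitor cells, measured 451, 515 and 517 FPKM with DMSO and 21.7, 27.8 and 32.7 FPKM with GDC0941, a log2 change of -4.14 ± 0.50 (SE, adjusted p = 3.26e-04). Ly6c1, a monocyte surface antigen, measured 34.2, 45.1 and 44.0 FPKM with DMSO and 2.67, 3.67 and 2.71 FPKM with GDC0941, a log2 change of -3.39 ± 0.48 (SE, adjusted p = 7.43e-04). The groups were far apart for all 3 genes. The Ly6 genes have near-identical copies, and how reads shared among copies were assigned is not given in the sources used here, so the split between Ly6c1 and its neighbours is uncertain.

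Ccl12, a monocyte-attracting chemokine gene, measured 156, 69.5 and 62.6 FPKM with DMSO and 20.1, 3.80 and 5.46 FPKM with GDC0941, a log2 change of -3.36 ± 0.52 (SE, adjusted p = 0.00117). Replicate 1 was the highest library in both groups for this gene. Cpa3, a mast cell protease gene, measured 139, 16.9 and 14.9 FPKM with DMSO and 5.49, 2.14 and 2.07 FPKM with GDC0941, a log2 change of -3.10 ± 0.69 (SE, adjusted p = 0.00767), and its DMSO mean rested largely on replicate 1. Aif1, a macrophage activation gene, measured 38.8, 53.4 and 51.1 FPKM with DMSO and 3.54, 4.995 and 5.54 FPKM with GDC0941, a log2 change of -3.10 ± 0.19 (SE, adjusted p = 1.14e-05). The remaining members of the 12 largest falls, Elane, Ctsg, Prtn3, Ifitm1, Ifit3 and Cxcl10, belong to groups described below.

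Pf4, Cpa3 and Pecam1 also mark other cell types, and the part of such cells in their falls was not tested. The 4 megakaryocyte markers summed to 77.1 to 133 FPKM in the DMSO libraries and 3.72 to 4.76 FPKM in the GDC0941 libraries, nearly all of it Pf4, while Itga2b, Gp9 and Gp1bb were at 0.462 FPKM or less in every library. The 6 markers of mast cells, basophils and eosinophils summed to 21.9 to 166 FPKM in the DMSO libraries and 4.83 to 7.09 FPKM in the GDC0941 libraries, and all 3 that could be tested fell: Cpa3, Prg2 (21.0, 3.83 and 4.11 FPKM against 0.639, 0.911 and 1.17 FPKM) and Mcpt8 (log2 change -1.13). The calls on Prg2 and Mcpt8 were lost when any GDC0941 library or DMSO replicate 1 was left out, with adjusted p-values of limma up to 0.141 over all alternatives. Tpsb2 and Fcer1a were at or near 0. The 6 markers of stroma and endothelium summed to 12.8 to 17.5 FPKM in the DMSO libraries and 1.94 to 2.62 FPKM in the GDC0941 libraries, nearly all of it Pecam1. Collagen genes and Cdh5 were at 0.332 FPKM or less.

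Genes induced by interferons fell together. These genes encode antiviral proteins and are switched on by STAT and IRF factors. Of 32 members tested, 28 fell, none rose, and the median log2 change was -1.70, beside 12.9% of all genes that fell and a median of 0.02 over all genes. All 3 GDC0941 libraries lay below all 3 DMSO libraries in 31 of the 32. The median by replicate number was -1.61, -1.64 and -1.64.

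Core sites for the response lie close to the start of several of these genes. Of 30 promoter windows of list members in the RefSeq table, running from 250 bases before to 50 bases after a start, 16 held GAAANNGAA on either strand (53.3%). The motif is the core of the interferon-stimulated response element and was added after the list counts were seen. It stood in 7.44% of the windows of all genes tested and in 11.3% of those of genes that fell, which include members of the list. The genes were listed for their induction by interferons, so their share describes the list. A link between the motif and the falls was not tested. A match is a run of letters, not evidence of binding. The windows of 3 of the named members are shown, 5′ to 3′ along the gene's strand, with the matches in capitals. They are RefSeq sequence of build GRCm38.p6: Cxcl10 at chr5:92348840-92349139, minus strand, Ifit1 at chr19:34640639-34640938, plus strand, and Isg15 at chr4:156200769-156201068, minus strand.
Cxcl10: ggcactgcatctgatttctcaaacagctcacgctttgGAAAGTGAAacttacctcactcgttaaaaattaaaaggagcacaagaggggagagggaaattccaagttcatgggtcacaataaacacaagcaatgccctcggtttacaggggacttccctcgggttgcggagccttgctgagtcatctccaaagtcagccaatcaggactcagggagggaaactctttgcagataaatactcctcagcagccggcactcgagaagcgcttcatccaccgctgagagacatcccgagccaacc
Ifit1: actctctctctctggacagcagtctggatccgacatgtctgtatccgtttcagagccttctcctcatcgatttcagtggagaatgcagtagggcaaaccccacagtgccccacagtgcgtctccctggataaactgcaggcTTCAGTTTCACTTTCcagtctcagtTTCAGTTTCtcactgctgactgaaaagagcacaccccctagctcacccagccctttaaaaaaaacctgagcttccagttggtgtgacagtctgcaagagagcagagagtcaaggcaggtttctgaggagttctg
Isg15: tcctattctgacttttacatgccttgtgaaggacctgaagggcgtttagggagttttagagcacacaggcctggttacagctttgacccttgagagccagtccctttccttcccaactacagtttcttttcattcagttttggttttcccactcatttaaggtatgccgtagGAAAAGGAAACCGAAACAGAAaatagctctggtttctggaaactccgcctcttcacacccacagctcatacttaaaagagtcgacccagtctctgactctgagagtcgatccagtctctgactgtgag

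Cxcl10 held 1 match, which began 213 bases before the start, while Ifit1 and Isg15 each held 3, the first pair of which overlap in Ifit1 and all of which overlap in Isg15. Cxcl10, a chemokine for activated lymphocytes, measured 16.6, 19.7 and 23.2 FPKM with DMSO and 1.88, 1.81 and 1.53 FPKM with GDC0941, a log2 change of -2.92 ± 0.28 (SE, adjusted p = 7.04e-05). Ifit1, whose protein binds viral RNA, measured 25.4, 11.7 and 11.97 FPKM with DMSO and 2.59, 1.82 and 1.89 FPKM with GDC0941, a log2 change of -2.41 ± 0.31 (SE, adjusted p = 4.49e-04). Isg15, a ubiquitin-like modifier, measured 187, 109 and 106 FPKM with DMSO and 22.1, 15.3 and 20.3 FPKM with GDC0941, a log2 change of -2.70 ± 0.35 (SE, adjusted p = 4.63e-04). DMSO replicate 1 was the highest library for Ifit1 and Isg15 and the lowest for Cxcl10, yet the treated libraries lay well under all 3 controls.

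Ifit3 fell by 3.01 on the log2 scale, from 38.1, 19.4 and 19.8 FPKM to 2.89, 1.46 and 2.31 FPKM, and Dhx58, a regulator of the RNA sensors, changed by -1.47. Ifitm1, a membrane protein of the interferon-induced family that also marks early cells, measured 154, 136 and 133 FPKM with DMSO and 18.1, 12.9 and 15.8 FPKM with GDC0941, a log2 change of -3.10 ± 0.31 (SE, adjusted p = 8.55e-05). Among the regulators, Irf7 changed by -2.21 and Stat2 by -0.95, and both passed the test. These regulators were picked once the results were known. The 4 members that did not pass were Irf9, Ifitm3, Ifi35 and Oas2, of which Ifitm3 differed from DMSO by 0.02. The interferon gamma receptor gene Ifngr1 moved the other way, from 56.6, 57.7 and 56.2 FPKM to 80.0, 84.4 and 89.6 FPKM, a log2 change of 0.57 ± 0.09 (SE, adjusted p = 0.00156).

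**Figure D3:**
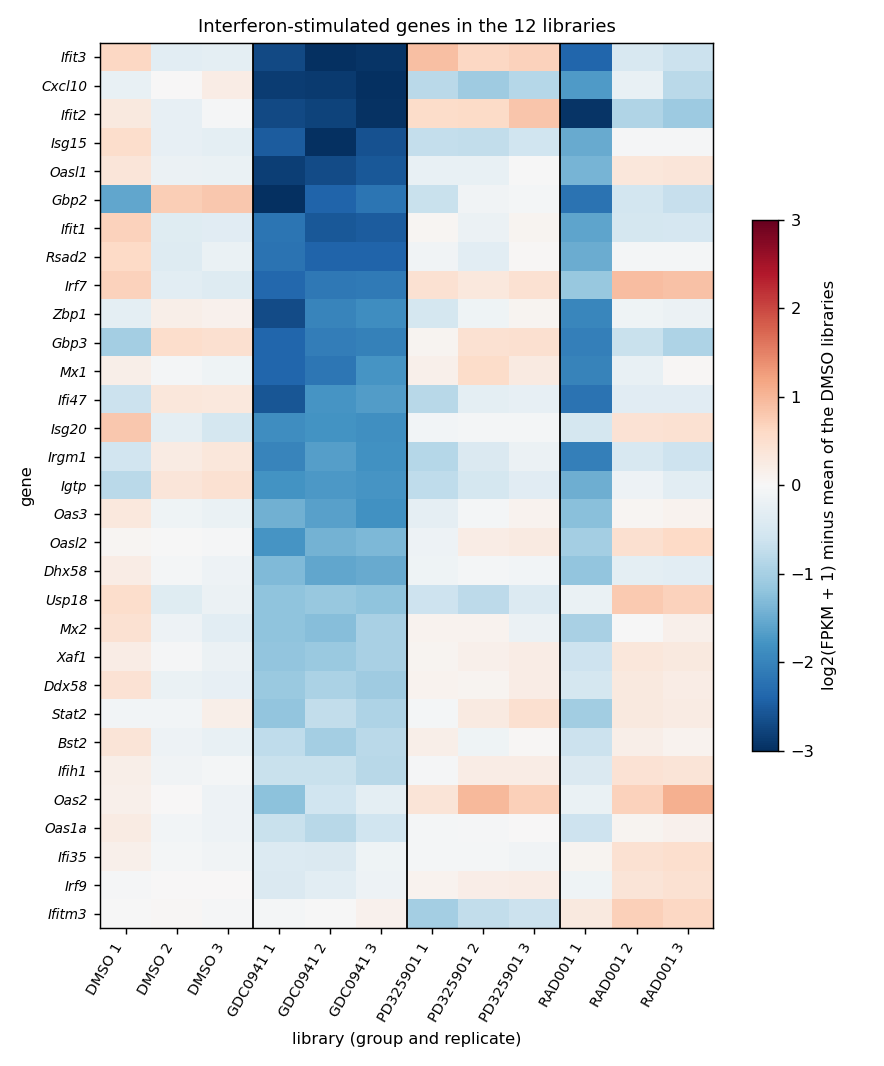
The rows are 31 of the 32 interferon-stimulated genes tested, as not every member is drawn, and each column is 1 library. The colour gives log2(FPKM + 1) minus the mean of the 3 DMSO libraries (red higher, blue lower). The GDC0941 columns are blue in 30 rows, the PD325901 columns are mostly near 0, and RAD001 replicate 1 is lower than RAD001 replicates 2 and 3.

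Antigen presentation genes fell in part. Of 17 MHC class I and peptide loading genes, 8 fell and none rose (median log2 change -0.63), and 13 fell without replicate 1 of every group. Tapbp, the loading chaperone tapasin, measured 108, 119.7 and 120.4 FPKM with DMSO and 75.4, 68.7 and 80.7 FPKM with GDC0941, a log2 change of -0.63 ± 0.12 (SE, adjusted p = 0.00297). The immunoproteasome subunit genes Psmb9 and Psmb8 changed by -1.21 and -0.88, the latter a call lost without DMSO replicate 2 or 3 (adjusted p of limma up to 0.0625), and the proteasome activator gene Psme2 by -0.65. Of 17 genes of MHC class II and costimulation, 8 fell (47.1%, beside 12.9% of all genes) and 2 rose (11.8%, beside 11.7%), with a median of -0.48. Cd74, the invariant chain that escorts class II molecules, measured 1132, 1458 and 1397 FPKM with DMSO and 443, 516 and 695 FPKM with GDC0941, a log2 change of -1.28 ± 0.22 (SE, adjusted p = 0.00225). Cd40, a costimulatory receptor gene, changed by -1.39, and H2-Oa, a modulator of class II loading, by -1.03. The integrin gene Itgax went up instead, from 18.4, 12.04 and 15.6 FPKM to 92.9, 46.9 and 40.5 FPKM (log2 change 1.83), whereas the other 2 dendritic cell markers, Flt3 and Zbtb46, fell by 0.84 and 0.58.

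Cell cycle genes fell together. All 33 mitosis genes fell, with log2 changes from -1.96 to -0.59 and a median of -1.43. Kif11, the motor that separates spindle poles, measured 6.85, 7.85 and 7.83 FPKM with DMSO and 3.67, 1.66 and 1.48 FPKM with GDC0941, a log2 change of -1.44 ± 0.23 (SE, adjusted p = 0.00132). Mki67, the gene of the proliferation antigen Ki-67, measured 13.3, 14.8 and 14.8 FPKM with DMSO and 6.56, 3.84 and 2.73 FPKM with GDC0941, a log2 change of -1.57 ± 0.23 (SE, adjusted p = 8.77e-04). Aurka, a spindle pole kinase gene, changed by -1.74 and Hmmr, a spindle protein gene, by -1.35. For all 4 genes GDC0941 replicate 1 was the highest treated library, still below every DMSO library. The median of the list was -0.69 when replicate 1 of each group was compared, -1.75 for replicate 2 and -1.86 for replicate 3.

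Genes of DNA replication followed the same division. Of 35 tested, 32 fell and 1 rose (median -1.19), with medians by number of -0.49, -1.57 and -1.46. Mcm7, a subunit of the replicative helicase, measured 26.4, 29.9 and 29.4 FPKM with DMSO and 14.7, 6.44 and 7.74 FPKM with GDC0941, a log2 change of -1.55 ± 0.25 (SE, adjusted p = 0.00151). The primase gene Prim1 changed by -1.50, the origin licensing gene Cdc6 by -1.28 and E2f2, a transcription factor of the G1 to S transition, by -1.32. Cdt1, an origin licensing factor, and E2f1, a transcription factor of the same transition, did not pass. Both were picked once the results were known. The E2F motif TTTCCCGC, added after the list counts were seen, stood in 5 of 31 promoter windows of the replication list (16.1%) and in 2.09% of those of all genes tested.

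Regulators of G1 moved in both directions: of 21, 3 rose and 8 fell. Cdkn2a, the locus of the inhibitors p16 and p19ARF in the mouse, measured 146, 154 and 153 FPKM with DMSO and 363, 301 and 368 FPKM with GDC0941, a log2 change of 1.18 ± 0.17 (SE, adjusted p = 7.09e-04). Its neighbour Cdkn2b, the gene of the p15 inhibitor, measured 8.26, 2.71 and 3.32 FPKM with DMSO and 29.9, 23.3 and 21.5 FPKM with GDC0941, a log2 change of 2.28 ± 0.35 (SE, adjusted p = 0.00112). Ccnd2, the gene of cyclin D2, measured 18.9, 25.5 and 26.6 FPKM with DMSO and 8.73, 10.05 and 6.78 FPKM with GDC0941, a log2 change of -1.37 ± 0.19 (SE, adjusted p = 7.12e-04), and Cdk2 changed by -0.58. The groups did not overlap for any of the 4 genes.

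Amino acid and serine synthesis genes were lower. The transcription factor ATF4 drives these genes, and mTOR complex 1 promotes its translation. Of 33 genes of the ATF4 and amino acid response, 24 fell and 3 rose, with a median log2 change of -0.85. Phgdh, the first enzyme of serine synthesis, measured 34.4, 39.3 and 37.8 FPKM with DMSO and 6.88, 5.36 and 6.31 FPKM with GDC0941, a log2 change of -2.41 ± 0.14 (SE, adjusted p = 8.89e-06). Shmt2, the mitochondrial enzyme that splits serine into glycine and a folate-bound carbon, measured 41.3, 44.6 and 43.4 FPKM with DMSO and 20.4, 13.9 and 14.5 FPKM with GDC0941, a log2 change of -1.37 ± 0.12 (SE, adjusted p = 4.87e-05). Both had narrow spreads and separate groups. Sesn2, a leucine sensor gene, changed by -1.37 and the glycine transporter gene Slc6a9 by -1.34. Mthfd2, which acts after Shmt2, changed by -1.40 and the last serine enzyme gene Psph by -0.85. In the wider list of serine, folate, nucleotide and polyamine synthesis, 9 of 29 fell and 2 rose, and 17 fell without replicate 1 of every group. The composite motif of ATF4 with C/EBP factors, TGATGNAAT, stood in 4 of 34 promoter windows of the ATF4 list (11.8%) and in 0.4% of those of all genes tested.

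The cystine transporter gene Slc7a11 went against this list. It measured 5.05, 3.40 and 4.14 FPKM with DMSO and 10.2, 31.5 and 22.9 FPKM with GDC0941, a log2 change of 1.997 ± 0.37 (SE, adjusted p = 0.00294). Slc7a11 is also a target of the oxidative stress factor NRF2. In the NRF2 list of 28, 2 genes were higher (7.14%, beside 11.7% of all genes) and 2 lower (7.14%, beside 12.9%). The peroxiredoxin gene Prdx1 rose by 0.95, a call lost with quantile normalization (adjusted p of limma 0.0556), while Keap1, the inhibitor of NRF2, fell by 0.46 and the transferrin receptor gene Tfrc by 1.06. Without replicate 1 of every group, 15 NRF2 list members were higher and 5 lower.

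Genes of glycolysis fell in part. Of 32 glycolysis and hypoxia genes, 18 fell and none rose (median log2 change -0.66), and without replicate 1 of every group 28 fell and 2 rose. Pfkp, a phosphofructokinase gene, measured 51.2, 40.5 and 40.2 FPKM with DMSO and 29.5, 24.6 and 24.5 FPKM with GDC0941, a log2 change of -0.72 ± 0.11 (SE, adjusted p = 0.00109). The pyruvate kinase gene Pkm2 measured 1101, 1048 and 1030.4 FPKM with DMSO and 804, 673 and 725 FPKM with GDC0941, a log2 change of -0.53 ± 0.08 (SE, adjusted p = 0.00119). Gpi1, the isomerase that follows hexokinase, changed by -0.58 and the hexokinase gene Hk3 by -0.70. The changes of these abundant enzymes were under 1 on the log2 scale, but the groups did not overlap. Of 32 genes of oxidative phosphorylation, 1 fell, the cytochrome c gene Cycs (log2 change -0.38), and none rose. That count was 6 with quantile normalization and 8 without replicate 1 of every group.

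Granule genes of early neutrophil development were among the deepest falls. These enzymes are made in promyelocytes and stored in primary granules. Of 15 tested, 9 fell and 1 rose, with a median log2 change of -1.57. Elane, neutrophil elastase, measured 44.2, 31.7 and 27.8 FPKM with DMSO and 2.99, 2.83 and 2.16 FPKM with GDC0941, a log2 change of -3.26 ± 0.37 (SE, adjusted p = 2.17e-04). Ctsg, cathepsin G, measured 77.8, 69.2 and 67.3 FPKM with DMSO and 8.28, 6.16 and 6.38 FPKM with GDC0941, a log2 change of -3.20 ± 0.31 (SE, adjusted p = 7.04e-05). Prtn3, proteinase 3, measured 70.5, 66.8 and 58.7 FPKM with DMSO and 5.83, 5.29 and 7.84 FPKM with GDC0941, a log2 change of -3.19 ± 0.34 (SE, adjusted p = 1.32e-04). All 3 protease genes were low in every treated library, with no overlap between the groups. Mpo, myeloperoxidase, changed by -2.29, from 22.2, 23.8 and 23.2 FPKM to 4.53, 3.23 and 4.07 FPKM, and the granulocyte progenitor gene Ms4a3 by -2.66.

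Cebpe, the transcription factor that directs secondary granule formation, measured 17.7, 15.1 and 14.1 FPKM with DMSO and 2.98, 3.87 and 3.94 FPKM with GDC0941, a log2 change of -1.86 ± 0.15 (SE, adjusted p = 3.31e-05). Of 26 genes of neutrophil maturation, 17 fell and 2 rose (median -1.13). Lcn2, a siderophore-binding granule protein, measured 896, 631 and 621 FPKM with DMSO and 175, 187 and 237 FPKM with GDC0941, a log2 change of -1.83 ± 0.20 (SE, adjusted p = 1.36e-04). Padi4, the enzyme that citrullinates histones, changed by -1.11, the membrane protease gene Mmp25 by -1.29 and the resistin-like gene Retnlg by -1.98. Ltf, lactoferrin, changed by -2.38 with a wide spread (13.0, 71.8 and 86.3 FPKM in the treated libraries), and its call was lost when GDC0941 replicate 1 or any of the DMSO libraries was left out, with an adjusted p of limma up to 0.106 over all alternatives. The neutrophil collagenase gene Mmp8 moved the other way, from 196, 292 and 312 FPKM to 472, 864 and 711 FPKM, a log2 change of 1.34 ± 0.22 (SE, adjusted p = 0.00167).

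Progenitor genes tied to the leukaemia program fell in part. Myb, a transcription factor that MLL-AF9 leukaemias need, measured 7.39, 8.01 and 7.54 FPKM with DMSO and 1.24, 1.93 and 2.07 FPKM with GDC0941, a log2 change of -1.67 ± 0.12 (SE, adjusted p = 1.68e-05). Of 19 genes of the MLL fusion and HOXA program, 6 fell and 1 rose. Flt3, a receptor kinase gene, changed by -0.84, the heterochromatin gene Cbx5 by -0.71 and Hmgb3 by -0.67. Of 14 stem and progenitor cell genes, 6 fell and 3 rose. Cd34 measured 34.5, 19.6 and 17.9 FPKM with DMSO and 8.33, 2.42 and 2.58 FPKM with GDC0941, a log2 change of -2.31 ± 0.40 (SE, adjusted p = 0.00231), with replicate 1 the highest in both groups. Lmo2 and Erg, transcription regulators of blood stem cells, changed by -0.88 and -0.75.

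The Myb and Ifitm1 windows held a FOXO motif, GTAAACA, on either strand, in the 50 bases after the start. That motif stood in 2.56% of the windows of all genes tested, 3.67% of those of genes that rose and 2.62% of those of genes that fell, and in 5 of 30 windows of the FOXO list (16.7%). The sequences are given because Myb and Ifitm1 had the smallest adjusted p-values among the named genes with a motif of the set first searched. That set leaves out the motifs added later. Both genes fell. Padi4 and Sesn3, which fell, and Egr2 and Klf6, which rose, came next with other motifs of that set, and their windows are not shown. They are RefSeq sequence of GRCm38.p6, Myb at chr10:21160935-21161234 on the minus strand and Ifitm1 at chr7:140967826-140968125 on the plus strand, with the match in capitals.
Myb: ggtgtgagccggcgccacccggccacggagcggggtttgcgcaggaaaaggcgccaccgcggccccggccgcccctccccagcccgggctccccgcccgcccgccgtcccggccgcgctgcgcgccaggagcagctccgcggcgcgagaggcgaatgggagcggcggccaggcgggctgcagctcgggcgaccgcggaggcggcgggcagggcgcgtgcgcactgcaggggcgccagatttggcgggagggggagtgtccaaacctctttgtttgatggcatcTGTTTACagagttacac
Ifitm1: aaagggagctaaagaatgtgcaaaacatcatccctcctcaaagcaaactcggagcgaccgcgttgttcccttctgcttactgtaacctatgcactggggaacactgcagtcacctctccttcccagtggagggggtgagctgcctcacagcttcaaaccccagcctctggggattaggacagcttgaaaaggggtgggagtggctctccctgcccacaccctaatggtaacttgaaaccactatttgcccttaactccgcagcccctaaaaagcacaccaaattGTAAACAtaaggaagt

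Of 26 transcription factors of the myeloid lineages, 11 rose and 4 fell (median log2 change 0.25). Egr2 measured 9.03, 7.62 and 5.76 FPKM with DMSO and 53.6, 34.4 and 64.5 FPKM with GDC0941, a log2 change of 2.59 ± 0.33 (SE, adjusted p = 4.17e-04), and Klf6 measured 88.7, 83.0 and 68.2 FPKM with DMSO and 152, 132 and 169.5 FPKM with GDC0941, a log2 change of 0.91 ± 0.12 (SE, adjusted p = 4.63e-04). Runx3 and Cebpe fell, by 1.44 and 1.86 on the log2 scale. Monocyte and macrophage genes divided nearly evenly, with 9 higher and 8 lower of 29. Fcgr2b, the inhibitory IgG receptor, measured 256, 139 and 168 FPKM with DMSO and 852, 739.6 and 729 FPKM with GDC0941, a log2 change of 2.09 ± 0.19 (SE, adjusted p = 5.25e-05). Clec4n, the gene of the fungal receptor Dectin-2, measured 539.9, 472 and 495 FPKM with DMSO and 1305, 1798 and 1942 FPKM with GDC0941, a log2 change of 1.72 ± 0.15 (SE, adjusted p = 4.83e-05), and the IgG receptor gene Fcgr3 changed by 1.03. The macrophage markers Cd68 and Emr1 (F4/80) did not pass. Emr1 measured 143, 107 and 110.4 FPKM with DMSO and 117, 56.4 and 54.5 FPKM with GDC0941, a log2 difference of -0.74 (adjusted p of limma 0.0564), and passed as lower under 6 of 18 alternatives, among them without GDC0941 replicate 1 (adjusted p 9.63e-04) and without replicate 1 of every group (6.81e-06). Cd68 differed by 0.36 (0.161) and passed as higher under 2 of 18, with the replicate number as a block and without replicate 1 of every group.

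Genes of the phagocyte oxidase and myeloid receptors were likewise mixed, 8 higher and 7 lower of 23. Cybb, the catalytic subunit of the oxidase, measured 198, 203 and 225 FPKM with DMSO and 401, 455 and 356 FPKM with GDC0941, a log2 change of 0.94 ± 0.10 (SE, adjusted p = 1.44e-04). The inhibitory receptor gene Sirpa changed by 0.49 and the RNA sensor gene Tlr7 by 0.83. Of 25 adhesion genes, 11 rose and 4 fell, with a median log2 change of the opposite sign (-0.21). The shared integrin chain gene Itgb2 measured 444, 481 and 507 FPKM with DMSO and 969, 925 and 790.2 FPKM with GDC0941, a log2 change of 0.90 ± 0.10 (SE, adjusted p = 2.12e-04). Pecam1, an adhesion protein of leukocytes, platelets and endothelium, measured 16.2, 12.7 and 12.1 FPKM with DMSO and 1.57, 2.25 and 2.03 FPKM with GDC0941, a log2 change of -2.31 ± 0.15 (SE, adjusted p = 1.46e-05). The adhesion counts were 11 higher and 12 lower without replicate 1 of every group.

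Of 17 proteases and plasminogen system genes that act on the matrix, 7 rose and 3 fell, with a median log2 change of -0.03, and 7 were higher and 6 lower without replicate 1 of every group. Besides Mmp12, Mmp19 measured 14.5, 11.5 and 12.4 FPKM with DMSO and 34.5, 37.4 and 39.4 FPKM with GDC0941, a log2 change of 1.47 ± 0.13 (SE, adjusted p = 4.83e-05). Plaur, the urokinase receptor, measured 188, 227 and 254 FPKM with DMSO and 487, 774 and 816 FPKM with GDC0941, a log2 change of 1.601 ± 0.18 (SE, adjusted p = 1.79e-04), with GDC0941 replicate 1 the lowest of the treated libraries. Among 26 chemokine and chemokine receptor genes, 6 rose (23.1%, beside 11.7% of all genes) and 4 fell (15.4%, beside 12.9%). Without replicate 1 of every group these counts were 12 and 7. The falls included Ppbp, a platelet chemokine, with a log2 change of -1.69. It measured 6.95, 3.97 and 2.55 FPKM with DMSO and 0.530, 0.595 and 0.719 FPKM with GDC0941. Of 13 genes of osteoclasts and fused macrophages, 4 rose (30.8%, beside 11.7% of all genes) and 2 fell (15.4%, beside 12.9%), with a median of -0.09. Atp6v0d2, a proton pump subunit of osteoclasts and macrophages, measured 12.4, 5.84 and 8.19 FPKM with DMSO and 27.0, 40.6 and 36.5 FPKM with GDC0941, a log2 change of 1.90 ± 0.26 (SE, adjusted p = 6.43e-04). Tyrobp, the signalling adaptor DAP12, rose by 0.68, a call lost with quantile normalization (adjusted p of limma 0.204), and the osteoclast phosphatase gene Acp5 fell by 1.31.

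A minority of lysosome genes rose. The factors TFEB and MITF, which mTOR complex 1 keeps in the cytoplasm, drive many of them. Of 40 genes tested, 10 rose and none fell (median log2 change 0.22). Without replicate 1 of every group 21 were higher and 6 lower, beside 1948 and 2361 of 10220 genes. Mitf measured 10.7, 8.29 and 8.39 FPKM with DMSO and 19.8, 19.8 and 20.2 FPKM with GDC0941, a log2 change of 1.06 ± 0.10 (SE, adjusted p = 7.25e-05). Tfeb measured 16.1, 18.3 and 19.2 FPKM with DMSO and 25.7, 27.9 and 31.1 FPKM with GDC0941, a log2 change of 0.63 ± 0.09 (SE, adjusted p = 8.77e-04). Both factors were about equal among the treated libraries. The proton pump accessory gene Atp6ap1 changed by 0.45. The E-box CACGTG, the core of the TFEB site, stood in 12 of 39 windows of the list (30.8%), in 10.6% of those of all genes tested and in 12.7% of those of genes that rose. Of 32 autophagy genes, 7 rose (21.9%, beside 11.7% of all genes) and 4 fell (12.5%, beside 12.9%). Gabarapl1, a member of the family that coats autophagosomes, measured 32.6, 30.7 and 32.6 FPKM with DMSO and 47.6, 72.5 and 61.4 FPKM with GDC0941, a log2 change of 0.88 ± 0.14 (SE, adjusted p = 0.00138), while Atg7, Atg3 and Vmp1 changed by 0.46, 0.52 and 0.90.

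Components of the inhibited pathway passed at shares near those of all genes. Among 27 genes of PI3K subunits, AKT and lipid phosphatases, 5 rose (18.5%, beside 11.7% of all genes) and 3 fell (11.1%, beside 12.9%), with a median log2 change of 0.07. The catalytic subunit gene Pik3ca measured 7.47, 6.05 and 6.81 FPKM with DMSO and 9.49, 9.44 and 8.04 FPKM with GDC0941, a log2 change of 0.36 ± 0.10 (SE, adjusted p = 0.0185). Pik3cb measured 18.8, 10.8 and 13.4 FPKM with DMSO and 34.1, 24.7 and 19.2 FPKM with GDC0941, a log2 change of 0.81 ± 0.24 (SE, adjusted p = 0.0283). The leukocyte subunit genes did not pass: Pik3cd differed by 0.25 (adjusted p of limma 0.128) and Pik3cg by 0.07 (0.705). Pik3c2a, of class II, rose by 0.66.

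Akt1, the gene of an AKT kinase, changed by 0.29. Inpp5d, the lipid phosphatase SHIP1, fell by 0.48. The calls on Pik3ca, Pik3cb, Akt1 and Inpp5d were lost with the spread taken from the GDC0941 and DMSO libraries alone. Those on Pik3ca, Pik3cb and Inpp5d were also lost without DMSO replicate 3, those on both Pik3ca and Pik3cb without DMSO replicate 2 or GDC0941 replicate 2, and that on Pik3cb without GDC0941 replicate 1, with adjusted p-values of limma up to 0.111 over all alternatives. Of 34 genes of the FOXO factors, their targets and receptor feedback, 8 rose (23.5%, beside 11.7% of all genes) and 2 fell (5.88%, beside 12.9%). The median of that list was -0.04. Irs2, the insulin receptor adaptor that FOXO factors induce, measured 1.99, 1.97 and 1.90 FPKM with DMSO and 5.79, 5.58 and 3.72 FPKM with GDC0941, a log2 change of 1.01 ± 0.14 (SE, adjusted p = 6.55e-04). Sesn3, another FOXO target, went down instead, with 3.17, 2.62 and 2.75 FPKM with DMSO and 0.864, 0.268 and 0.382 FPKM with GDC0941 and a log2 change of -1.37 ± 0.17 (SE, adjusted p = 3.62e-04).

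Of 29 genes of the mTOR complexes and their regulators, 5 fell (17.2%, beside 12.9% of all genes) and 1 rose (3.45%, beside 11.7%). Mtor itself differed by -0.02 (adjusted p of limma 0.937), with a direction that flips under 2 of the alternatives. The falls included Ddit4, an inhibitor of mTOR complex 1 induced by stress, which measured 15.3, 8.84 and 14.0 FPKM with DMSO and 2.28, 1.53 and 1.47 FPKM with GDC0941, a log2 change of -2.29 ± 0.29 (SE, adjusted p = 3.73e-04). Prr5, a subunit of mTOR complex 2, changed by -1.20. Sesn1, Sesn2 and Sesn3, which restrain mTOR complex 1, made up the remainder.

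Of the genes of the RAS route and its output, a minority rose. Nras measured 28.4, 29.8 and 31.9 FPKM with DMSO and 42.8, 40.8 and 39.2 FPKM with GDC0941, a log2 change of 0.44 ± 0.07 (SE, adjusted p = 0.00203). The table does not separate the NRASG12V oncogene from the mouse gene. Of 24 genes of RAS, RAF, MEK and ERK, 5 rose (20.8%, beside 11.7% of all genes) and 1 fell (4.17%, beside 12.9%). Mapk3, the gene of ERK1, rose by 0.41, Rasa1, which switches RAS off, by 0.45, and Rasgrp2, an activator of RAP proteins, fell by 0.82. Without DMSO replicate 2 the calls on Mapk3 and Rasa1 were lost, as was that on Mapk3 without DMSO replicate 3 or GDC0941 replicate 3 and that on Rasa1 without GDC0941 replicate 2 (adjusted p of limma up to 0.0589). Map2k1 differed by 0.06 (adjusted p of limma 0.743).

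Of 31 genes that ERK signalling induces, 11 rose and 1 fell (median log2 change 0.25). Etv1 measured 2.95, 2.35 and 2.81 FPKM with DMSO and 8.12, 5.69 and 5.47 FPKM with GDC0941, a log2 change of 0.99 ± 0.13 (SE, adjusted p = 4.63e-04). The receptor gene Epha2 was the exception, with 2.68, 3.01 and 2.89 FPKM with DMSO and 0.610, 0.905 and 0.664 FPKM with GDC0941 and a log2 change of -1.16 ± 0.11 (SE, adjusted p = 5.87e-05). STAT5 is a factor that GM-CSF activates. Of 29 genes of STAT5 feedback and growth factor receptors, 10 rose and 3 fell. Ccnd2, the member with the smallest adjusted p, fell by 1.37 on the log2 scale. Cish, a feedback inhibitor of the receptor, measured 4.72, 4.86 and 4.67 FPKM with DMSO and 10.03, 17.4 and 22.7 FPKM with GDC0941, a log2 change of 1.55 ± 0.24 (SE, adjusted p = 0.00120), and Stat6 changed by 0.36. Among 23 NF-kB targets and cytokines, 1 rose (4.35%, beside 11.7% of all genes) and 5 fell (21.7%, beside 12.9%). Tnfsf9 measured 27.3, 21.1 and 27.2 FPKM with DMSO and 56.4, 83.2 and 79.6 FPKM with GDC0941, a log2 change of 1.49 ± 0.19 (SE, adjusted p = 3.73e-04), and Nfkb1 and Icam1 changed by -0.35 and -0.63. The Icam1 call was lost without DMSO replicate 1, DMSO replicate 3 or GDC0941 replicate 1 (adjusted p of limma up to 0.0705). Without replicate 1 of every group, 6 genes of that list were higher and 7 lower.

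Of 18 BCL2 family genes, 7 rose (38.9%, beside 11.7% of all genes) and 4 fell (22.2%, beside 12.9%). The 4 members named here had the smallest adjusted p-values, and the other members called are not described. Bcl2a1b, an anti-apoptotic member, measured 39.7, 31.3 and 37.2 FPKM with DMSO and 98.3, 113 and 124 FPKM with GDC0941, a log2 change of 1.605 ± 0.26 (SE, adjusted p = 0.00150), and its copy Bcl2a1d changed by 1.07. The Bcl2a1 copies are nearly identical, so their split is uncertain. The pro-apoptotic genes Bid and Pmaip1 moved down: Bid measured 40.1, 53.1 and 55.0 FPKM with DMSO and 18.3, 18.6 and 20.7 FPKM with GDC0941, a log2 change of -1.31 ± 0.14 (SE, adjusted p = 1.40e-04), and Pmaip1 (Noxa) measured 15.5, 12.2 and 10.8 FPKM with DMSO and 4.78, 4.67 and 6.62 FPKM with GDC0941, a log2 change of -1.12 ± 0.15 (SE, adjusted p = 6.43e-04). Of 22 p53 targets, 1 rose (4.55%, beside 11.7% of all genes) and 5 fell (22.7%, beside 12.9%). Gdf15, a stress cytokine, changed by -1.11, Sesn1 by -0.96 and Gtse1, a G2 and mitosis gene, by -1.31.

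Sterol synthesis genes gave no call, yet replicate 1 differed from the others. None of 23 members passed in limma, also with quantile normalization or median-ratio scaling, while 3 were higher and 0 lower at an unadjusted p under 0.05. The median log2 change was 0.06. By replicate number the median was 0.82, -0.36 and -0.38. Fdps, which makes farnesyl diphosphate, measured 144, 176 and 176 FPKM with DMSO and 229, 109 and 137 FPKM with GDC0941, with a log2 difference of -0.12 (adjusted p of limma 0.768). Sc4mol (now Msmo1), a later enzyme, measured 44.5, 57.4 and 63.9 FPKM with DMSO and 91.7, 56.6 and 65.8 FPKM with GDC0941, with a difference of 0.35 (0.167). Without replicate 1 of every group, 14 of the 23 were lower and none higher. The core of the sterol regulatory element, CACCCCAC, stood in 1 of 19 windows of the list (5.26%) and in 3.09% of those of all genes tested.

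Fatty acid synthesis showed the same division, with medians by number of 0.59, -0.13 and -0.37. Of 17 genes, 1 rose, the elongase gene Elovl1 (log2 change 0.28), whose call was lost without replicate 1 or 3 of either group (adjusted p of limma up to 0.104 over all alternatives), and 8 were lower without replicate 1 of every group. Of 20 LXR targets and cholesterol efflux genes, 4 rose (20%, beside 11.7% of all genes) and 2 fell (10%, beside 12.9%). The exporter gene Abcg1 measured 10.4, 16.5 and 18.4 FPKM with DMSO and 23.5, 34.1 and 29.0 FPKM with GDC0941, a log2 change of 0.91 ± 0.18 (SE, adjusted p = 0.00446). Pparg, a lipid-sensing receptor gene, changed by 0.86, the lysosomal cholesterol transporter gene Npc1 by 0.45, and the exporter gene Abca1 fell by 0.59. The Abca1 call was lost without DMSO replicate 1, DMSO replicate 3 or GDC0941 replicate 3 (adjusted p of limma up to 0.0794). Without replicate 1 of every group 7 genes of the list were higher and 7 lower, beside 1948 and 2361 of 10220 genes.

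**Figure D4:**
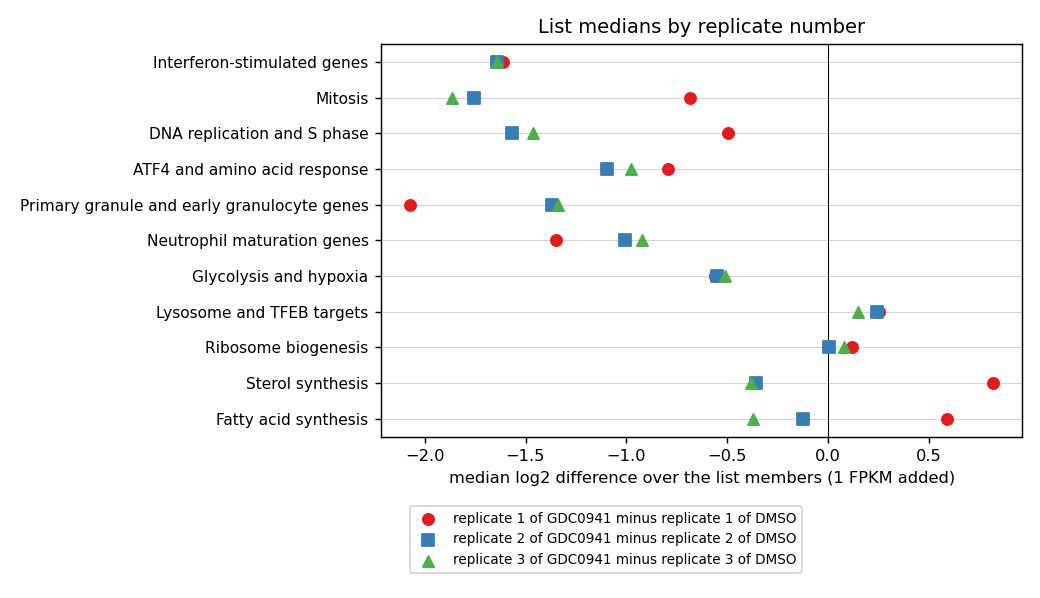
The median log2 difference over the members of 11 gene lists between the GDC0941 and DMSO libraries of the same number, with a symbol for each of the numbers 1 to 3. Interferon and glycolysis medians lie close together, the mitosis and replication medians are nearer 0 for replicate 1, and the sterol and fatty acid medians lie above 0 for replicate 1 and below 0 for replicates 2 and 3.

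The count of translation genes that rose depended on the scaling and on replicate 1. Of 38 ribosomal protein and translation factor genes, 8 rose and none fell, but 0 rose and 2 fell with quantile normalization, and 21 rose and 1 fell without replicate 1 of every group. Eef1a1, the elongation factor that delivers tRNA, measured 3466, 3267 and 3321 FPKM with DMSO and 4144, 5105 and 5158 FPKM with GDC0941, a log2 change of 0.51 ± 0.11 (SE, adjusted p = 0.00523). Tpt1 changed by 0.58, Rps4x by 0.42 and Rpl5 by 0.45, and all 4 calls were lost with quantile normalization, that on Rpl5 also without GDC0941 replicate 2 or 3. Of 36 ribosome biogenesis genes, 5 rose (13.9%, beside 11.7% of all genes) and none fell, and with median-ratio scaling 1 rose. They were small changes, such as 0.44 for Utp20, 0.26 for Nop16, 0.25 for Ubtf and 0.28 for Polr1c. Each of these 4 calls was lost without GDC0941 replicate 2 and without DMSO replicate 1, among other libraries, with adjusted p-values of limma up to 0.139 over all alternatives. Of 22 endoplasmic reticulum chaperone and stress genes, none passed in limma, also with either other scaling. At an unadjusted p under 0.05, 4 were higher and 1 lower, as were 4 and 1 at the adjusted threshold without replicate 1 of every group.

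**Figure D5:**
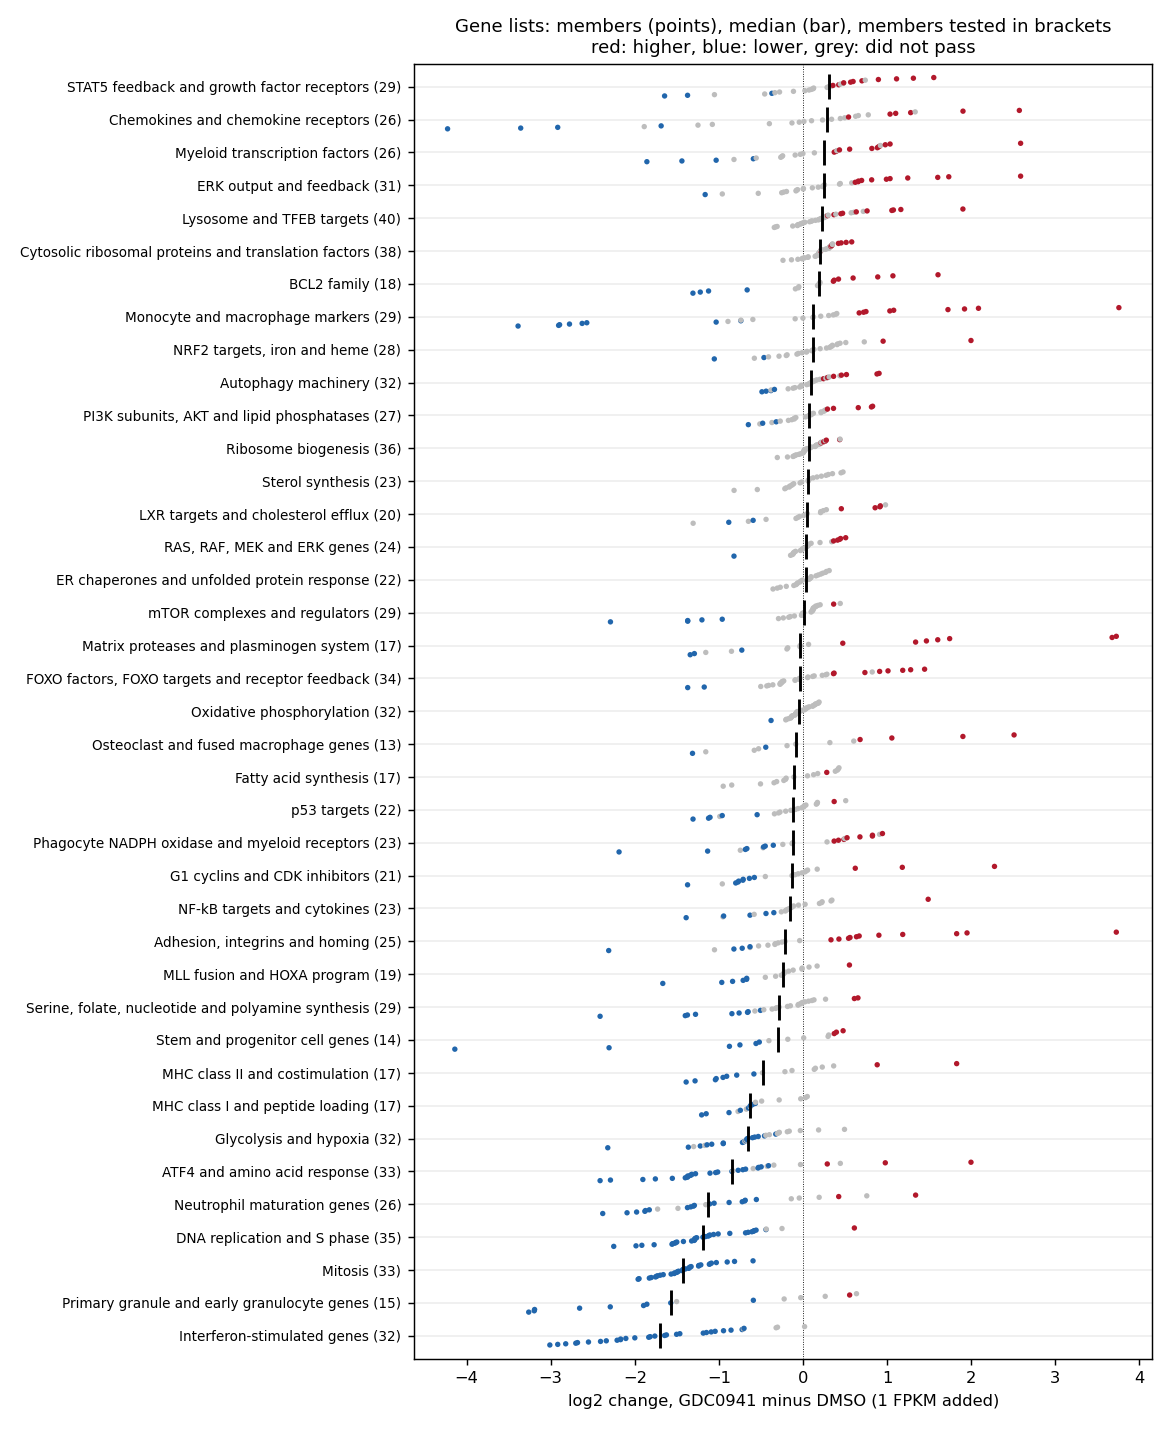
Each row is a gene list with its number of members tested in brackets, each point a member at its log2 change between GDC0941 and DMSO (red rose, blue fell, grey did not pass), and the bar the median of the list. Interferon, granule, mitosis, replication and neutrophil lists have the lowest medians, with all 33 mitosis genes blue.

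Against RAD001, the mTOR inhibitor, the GDC0941 libraries differed directly in 1754 genes (17.0%), with 823 (8.0%) higher and 931 (9.05%) lower. The doses were not matched (20 µM and 26 µM). Without RAD001 replicate 2 the count was 925, and without RAD001 replicate 3 it was 940. Without replicate 1 of every group it was 3365 of 10220 genes (1582 higher, 1783 lower). With the replicate number as a block, 1097 of 10289 genes were higher and 1181 lower. Both pairs of numbers are the background for list counts against RAD001 taken in those ways. Among genes that also passed against DMSO and met the limits for naming, Pf4 and Ppbp separated the inhibitors in the deepest way. Pf4 measured 278, 232 and 215 FPKM with RAD001, a log2 difference of -5.58 ± 0.37 (SE, adjusted p = 9.46e-06) for GDC0941 minus RAD001. Ppbp measured 201, 182 and 167 FPKM with RAD001 and 0.530, 0.595 and 0.719 FPKM with GDC0941, a difference of -6.83 ± 0.22 (SE, adjusted p = 1.84e-08). For both platelet chemokines the RAD001 libraries lay above, and the GDC0941 libraries below, every DMSO library.

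Ly6a measured 256, 977 and 949 FPKM with RAD001, a log2 difference of -4.47 ± 0.50 (SE, adjusted p = 2.20e-04). Ly6c1 differed by -3.90 and Retnlg by -3.58. Among genes that also passed against DMSO and met the limits for naming, the largest excess with GDC0941 was in Car4. It measured 2.07, 2.65 and 1.63 FPKM with RAD001, a difference of 3.61 ± 0.29 (SE, adjusted p = 2.85e-05). Cd209a, Atp6v0d2, Gm11428 and Enpp1, a pyrophosphatase gene, were higher with GDC0941 by 2.45, 2.02, 1.96 and 1.88. Mmp12, Fn1 and Cdkn2b did not differ beyond the test, with log2 differences of 0.17, 0.42 and -0.30 and adjusted p-values of limma of 0.600, 0.478 and 0.574.

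By list, 24 of 32 interferon-stimulated genes were lower with GDC0941 than with RAD001 and none higher (median -1.14). RAD001 replicate 1 was itself low for these genes: Isg15 measured 44.8, 126 and 127 FPKM with RAD001. Without replicate 1 of every group all 32 were lower. Of 26 neutrophil maturation genes, 16 were lower and none higher. Of 23 sterol synthesis genes, 15 were higher with GDC0941 and none lower (median 0.91), with Fdps at 75.4, 44.9 and 43.9 FPKM with RAD001, a difference of 1.49 ± 0.26 (SE, adjusted p = 0.00330). Of 33 mitosis genes, 2 were higher with GDC0941 (beside 8.0% of all genes) and none lower, and 11 were higher without replicate 1 of every group. Of 23 NF-kB targets and cytokines, 10 were lower and none higher, and 16 were lower with the replicate number as a block. The blocked fit also gave 12 of 40 lysosome genes higher in place of 6, and 3 of 15 primary granule genes higher with 4 lower in place of 0 and 1. Without replicate 1 of every group, 25 neutrophil maturation genes and 16 NF-kB genes were lower, 16 lysosome genes were higher and 8 lower, and 8 primary granule genes were higher and 5 lower.

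Against PD325901, the MEK inhibitor, at the same dose of 20 µM, 5263 genes (51.2%) differed, with 3185 (31.0%) higher and 2078 (20.2%) lower with GDC0941. The excess of higher genes depended on the scaling. Median-ratio scaling gave 2638 higher and 2541 lower, and quantile normalization 2766 and 2430. Mmp12 measured 3.85, 4.82 and 4.56 FPKM with PD325901, a log2 difference of 9.46 ± 0.21 (SE, adjusted p = 2.71e-10). The PD325901 libraries lay below, and the GDC0941 libraries above, every DMSO library. The collagenase gene Mmp13 differed by 6.10, 2010005H15Rik (now Csta2) by 5.74, Tnfsf9 by 4.88 and Selp by 4.70. Lower with GDC0941 were Ltf by 4.21, Ly6a by 4.0, Acp5 by 3.99, Ifit3 by 3.75 and Tmem37 by 3.66.

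Of 31 genes that ERK induces, 26 were higher with GDC0941 than with PD325901 and none lower (median 2.09). The ribosome biogenesis list was higher in 34 of 36 and the translation list in 38 of 38, with medians of 1.09 and 0.74. List counts against PD325901 were not taken with either other scaling. Interferon-stimulated genes were lower in 29 of 32 and higher in 1. In the sterol list, 18 of 23 were higher and none lower (15 and 1 without replicate 1 of every group). Mitosis genes did not separate the inhibitors in the same way: 2 of 33 were lower with GDC0941, and 29 of 33 were lower without replicate 1 of every group. Over all 10220 genes of the fit without replicate 1, 3414 were higher with GDC0941 and 2598 lower. The comparisons with DMSO share their controls and are therefore not set against each other.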

How the data were processed

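Total RNA from the 12 samples was sequenced on Illumina libraries, per the labels' protocols. The authors deposited 1 table of FPKM values, for which the submitters' processing notes name TopHat2 2.0.4, Cuffdiff and the build mm9. Not given in the sources used here are Cuffdiff's version, the gene models, how libraries were scaled to each other and how reads shared by gene copies were handled. FPKM values do not keep whole reads, so the depth and its counting error are unknown. The table holds symbols only, and no mm9 positions are given.

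Groups came from the sample labels. The 10289 genes that averaged 1 FPKM or more in the 3 GDC0941 and 3 DMSO libraries were analysed as log2(FPKM + 1) with limma 3.58.1 in R 4.3.3: group means over all 12 libraries (8 residual degrees of freedom), eBayes with a trend, and Benjamini-Hochberg adjustment over all genes, called at 0.05. The script was tested on simulated data. The smallest exact permutation p for 3 against 3 is 0.1, so no exact test was used. Each gene was tested with a spread moderated across genes. Of the GDC0941 libraries, replicate 1 deviated most like DMSO replicate 1 (correlation of deviations 0.30, beside at most -0.21 with another DMSO library). Replicates 2 and 3 did not match their own number best (0.099 and 0.036, beside up to 0.26 and 0.28). Each GDC0941 library deviated most like the RAD001 library of its number (0.59, 0.49 and 0.31). For that comparison the text gives a fit with the replicate number as a block beside each list count that the block moved by over 1.5 times.

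The 39 pathway and 9 cell type lists, the samples and the tests were chosen with earlier results of these data known. Named genes are the 12 largest rises and 12 largest falls (adjusted p under 0.05, no overlap, at least 5 FPKM in the higher group, no value of 0), up to 4 members per list by smallest adjusted p (or, where none passed, the 2 most abundant members), 7 pathway genes, and the 5 largest differences each way from PD325901 and RAD001. Those differences met the same conditions in their own comparison and also had an adjusted p under 0.05 against DMSO. The most abundant endoplasmic reticulum genes are not described, and some named members of other lists are not reported here, though list counts and medians include them. Promoter windows (300 bases) came from a RefSeq table of GRCm38.p6, in which 8265 of 10289 genes (80.3%) were matched by symbol or synonym. The motifs of FOXO, the E-box, the sterol element, ATF4 with C/EBP and STAT (TTCCNGGAA, in 1.29% of the windows of all genes tested and 1.2% of those of genes that rose) were searched on both strands, and those of the interferon response and E2F were added after the list counts were seen. Motif shares within a list describe genes listed for known roles, and their link to the changes was not tested. Alternatives covered the pseudocount, filter, scaling, spread, weights, block and each library left out. Figures were drawn with matplotlib 3.10.9.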

Additional observations from a re-analysis of the deposited data

How the results depend on the processing

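Of the 150 named genes that passed against DMSO, 124 passed in the same direction under every alternative run, 26 lost the call under at least 1, and none reversed while called. For GDC0941 against DMSO, 814 genes were lower with a filter at 5 FPKM, 729 higher with the spread of the 2 groups alone, and 3881 changed (2112 lower) with library weights. Leaving out 1 library gave 1660 to 3213 changed and 711 to 1393 higher genes. The lowest counts came without DMSO replicate 2 (1660 and 711), and 764 were higher without DMSO replicate 3. Without replicate 1 of every group, an alternative chosen after seeing the data, 4309 of 10220 genes changed (1948 higher, 2361 lower). Of the 2531 calls, 2402 were shared. For GDC0941 against RAD001, the count was 675 with the 2 groups alone, 3029 with library weights, 925 to 1946 with 1 RAD001 library left out (940 without RAD001 replicate 3), and 3365 without replicate 1 of every group. With the replicate number as a block, 2981 genes changed against DMSO, 2278 against RAD001 and 5577 against PD325901; 1 of 3 GDC0941 libraries deviated most like the DMSO library of its own number. The total count of genes that differed from PD325901 moved by less than 1.5 times under every alternative run. In the lists against DMSO, the block moved a count by over 1.5 times in 3 lists, to 10 higher and 7 lower chemokine genes, 14 and 2 lysosome genes and 11 and 2 genes of ERK output. Among genes that did not pass, the log2 difference of Mtor was 0.077 with quantile normalization, and with 1 library left out it ranged from -0.169 to 0.160 for Mtor, -0.0357 to 0.174 for Map2k1, -0.425 to 0.109 for Fdps and -0.0386 to 0.196 for Pik3cg. Counts of higher and lower genes that moved by over 1.5 times without replicate 1 of every group, beyond those given above, were 6 and 1 for ribosome biogenesis, 5 and 6 for osteoclast genes, 1 and 10 for the MLL fusion program, 3 and 9 for p53 targets, 5 and 9 for MHC class II, 11 and 5 for FOXO genes, 7 and 6 for PI3K genes, 3 and 7 for mTOR genes, 3 and 10 for primary granule genes, 11 and 3 for autophagy, 15 and 3 for ERK output, 14 and 5 for STAT5 genes, 5 and 2 for RAS genes and 4 and 20 for neutrophil genes. The causes were not tested. With 3 libraries a group and no counts, depth and separate cultures could not be weighed.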

Other observations

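Of 10 families grouped by gene symbol, chosen after values were seen and so given with no test of the family, some had most members called in 1 direction. A few of their members also stand in the lists above. All 8 guanylate-binding protein genes measured at 1 FPKM or more fell (Gbp2 to Gbp9, median log2 change -1.95), as did 6 of 7 immunity-related GTPase genes, both families that interferons induce. Gbp2 measured 11.8, 62.1 and 64.8 FPKM with DMSO and 3.55, 6.12 and 7.18 FPKM with GDC0941. DMSO replicate 1 was the lowest control for Gbp2, as it was for the sum of the T and NK cell markers, and the part of such cells was not tested. The 3 genes of complement C1q fell: C1qa measured 26.2, 58.0 and 53.1 FPKM with DMSO and 3.24, 4.81 and 7.57 FPKM with GDC0941, and C1qb measured 76.7, 124 and 122.96 FPKM with DMSO and 11.4, 13.6 and 19.6 FPKM with GDC0941, log2 changes of -2.89 and -2.78. C1q is made by macrophages, and the part of such cells was not tested. None of the 3 macrophage markers passed, and they did not move together. Emr1 measured 143, 107 and 110.4 FPKM with DMSO and 117, 56.4 and 54.5 FPKM with GDC0941. Cd68 measured 726, 590 and 646 FPKM with DMSO and 1038, 769 and 733 FPKM with GDC0941. Mrc1 measured 9.11, 11.4 and 11.6 FPKM with DMSO and 9.62, 13.4 and 12.2 FPKM with GDC0941.

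Of 7 membrane-spanning Ms4a genes, 6 fell, Ms4a7 from 86.6, 58.9 and 55.4 FPKM to 12.8, 11.1 and 11.7 FPKM. The 4 IgG receptor genes divided: Fcgr2b and Fcgr3 rose, whereas Fcgr1 fell from 40.6, 52.0 and 51.9 FPKM to 6.82, 6.82 and 7.09 FPKM and Fcgr4 by 2.19 on the log2 scale. Of 3 Cd200 receptor genes, 2 rose, Cd200r1 by 1.12 and Cd200r4 by 1.36; these genes are near copies, so their split is uncertain. Among 20 kinesin genes, 9 fell, which include the mitotic motors Kif11, Kif20a, Kif23 and Kif2c, and 4 rose, namely Kif13a, Kif1b, Kif1c and Kif3a, which carry cargo along microtubules. Of 8 Clec4 lectin receptor genes and of 8 tetraspanin genes, 3 rose and 1 fell in each family. None of 9 replication histone genes passed in limma (2 higher and 1 lower at an unadjusted p under 0.05).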
